A study of Mus musculus with 20 samples.

Results

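The claudins Cldn1, Cldn2, Cldn3, Cldn4, Cldn7, Cldn8, Cldn12, Cldn15 and Cldn23, together with occludin (Ocln), are genes of the epithelial tight junction. They were chosen by symbol, as 10 of the 55487 genes in the deposited table. Their transcripts were followed in bulk RNA-seq of polyA RNA from mouse small intestine. The 4 groups of 5 libraries each were pups of dams with periodontitis at 7 weeks, pups of control dams at 7 weeks, pups of dams with periodontitis at 2 weeks and pups of control dams at 2 weeks. Periodontitis is an inflammatory disease of the gums and tooth support, and it was a condition of the dams, not of the pups sampled. Below, "periodontitis pups" are the offspring of such dams. The labels used here give no strain, sex, litter, segment of intestine or number of pups per library, nor how periodontitis was brought about. Nothing says that the libraries of a group came from separate litters, so the p-values measure the spread between these libraries, which may be partly technical. In the main fit that spread was estimated over the 4 groups together.

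Tight junctions close the space between neighbouring epithelial cells and set which ions and molecules pass through it. Claudins are the membrane proteins that form their strands. Some claudins seal the junction and others line charge-selective pores, so the permeability of an epithelium depends on the mixture it makes. In the mouse small intestine the pores of claudin-2 and claudin-15 let sodium return to the lumen, where sodium-coupled carriers use it to take up glucose, amino acids and bile acids.

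Levels of different genes were compared per kb of exon in CPM, the counts as a share of the library, scaled between libraries by edgeR's TMM factors. At 7 weeks the order was led by Cldn7, at 548 ± 140 CPM per kb in periodontitis pups and 512 ± 66.8 CPM per kb in control pups (SD, n = 5 each). Cldn15 followed at 428 ± 83.2 and 417 ± 41.5 CPM per kb, then Cldn3 and Cldn4, and the libraries' ranges of neighbours among these 4 genes overlapped in both groups. Cldn23 and Ocln lay well below them, at 37.1 ± 14.8 and 36.0 ± 7.48 CPM per kb in periodontitis pups, and their ranges overlapped. Cldn12 came next and Cldn2 after it, at 6.19 ± 10.05 CPM per kb in periodontitis pups and 3.66 ± 1.75 CPM per kb in control pups. Without periodontitis library 5 the Cldn2 level was 1.70 ± 0.56 CPM per kb (n = 4), below that of the control pups. At 2 weeks Cldn7 was again first, at 228 ± 20.8 CPM per kb in periodontitis pups and 209 ± 105 CPM per kb in control pups. Without control library 5 of 2 weeks the Cldn7 level of control pups was 256 ± 6.71 CPM per kb (n = 4), above that of the periodontitis pups. Cldn2 stood beside Cldn3 and Cldn4 at 2 weeks, at 94.2 ± 4.59 CPM per kb in periodontitis pups and 94.6 ± 9.26 CPM per kb in control pups. Cldn15 was at 55.9 ± 21.2 CPM per kb in periodontitis pups and 77.7 ± 29.8 CPM per kb in control pups. Without control library 5 of 2 weeks, control pups had Cldn15 at 90.9 ± 5.78 and Cldn2 at 91.2 ± 6.32 CPM per kb (n = 4). Cldn1 was last in all 4 groups, at no more than 0.324 CPM per kb in any library.

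**Figure D1:**
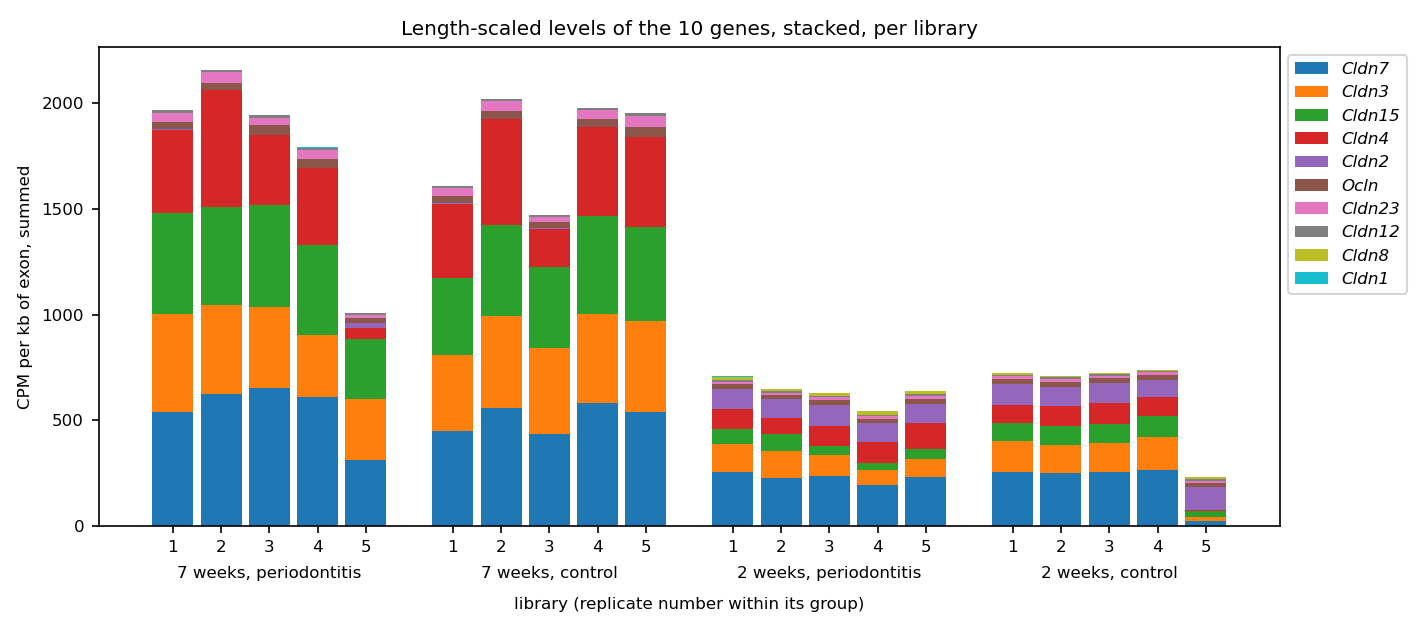
Stacked bars give the CPM per kb of exon of the 10 genes in each of the 20 libraries, numbered by replicate within the 4 groups. Cldn7, Cldn3, Cldn15 and Cldn4 fill most of each bar at 7 weeks, and the Cldn2 layer is visible mainly at 2 weeks. The sum is lowest in 2-week control library 5 (231 CPM per kb), and at 7 weeks in periodontitis library 5 (1007 CPM per kb).

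Summed over the 10 genes, the level was 1007 to 2160 CPM per kb in periodontitis pups at 7 weeks and 1474 to 2023 in control pups at 7 weeks. At 2 weeks it was 544 to 707 CPM per kb in periodontitis pups and 231 to 739 in control pups. Cldn15 made up 24.6 ± 2.49% of the sum in periodontitis pups at 7 weeks and 8.71 ± 2.82% in periodontitis pups at 2 weeks. In control pups its share was 23.2 ± 1.74% at 7 weeks and 12.2 ± 0.918% at 2 weeks (SD, n = 5). Cldn2 held 0.549 ± 1.03% in periodontitis pups at 7 weeks and 14.97 ± 1.37% in periodontitis pups at 2 weeks, and in control pups 0.217 ± 0.136% at 7 weeks and 19.4 ± 15.3% at 2 weeks. Without library 5 of these groups the Cldn2 share was 0.0872 ± 0.0299% in periodontitis pups at 7 weeks, below that of the control pups, and 12.6 ± 0.977% in control pups at 2 weeks (SD, n = 4 each).

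The genes lie at separate places in the genome (GENCODE M21 on GRCm38). Cldn2 is on chromosome X (139800828 to 139811386, plus strand) and Cldn15 on chromosome 5 (136966616 to 136975858, plus strand). Cldn3 (134986214 to 134987472, plus strand) and Cldn4 (134945119 to 134946934, minus strand) are single-exon neighbours on the same chromosome. Cldn12 is also on chromosome 5 (5489537 to 5514958), Cldn7 on chromosome 11 (69964779 to 69967885), Ocln on chromosome 13 (100496507 to 100552718) and Cldn23 on chromosome 8 (35824712 to 35826559). Cldn1 (26356642 to 26371841) and Cldn8 (88560828 to 88563183) are both on chromosome 16. The exon of Cldn3 shares 40 bases with the antisense gene Wbscr25, and whether the counting used strand is not given in the sources used here.

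The 2 genes that moved farthest apart with age among the abundant members, Cldn2 and Cldn15, are shown with the 250 bases before their RefSeq start (GRCm38.p6, 5′ to 3′). The window of Cldn2 is chrX:139800558-139800807 and that of Cldn15 is chr5:136967619-136967868, both on the plus strand; the second lies inside the longer GENCODE gene. Capitals mark matches to the letters searched.
Cldn2: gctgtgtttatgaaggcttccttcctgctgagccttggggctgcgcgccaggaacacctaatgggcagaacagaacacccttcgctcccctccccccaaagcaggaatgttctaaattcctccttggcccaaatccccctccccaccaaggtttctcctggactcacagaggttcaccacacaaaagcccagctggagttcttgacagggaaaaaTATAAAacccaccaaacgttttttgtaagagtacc
Cldn15: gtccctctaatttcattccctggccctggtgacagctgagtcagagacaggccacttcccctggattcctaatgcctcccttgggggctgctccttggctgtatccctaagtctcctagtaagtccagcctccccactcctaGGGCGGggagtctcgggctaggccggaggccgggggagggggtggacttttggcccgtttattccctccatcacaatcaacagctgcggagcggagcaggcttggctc
In the Cldn2 window the capitals are a TATA box (TATAAA), 35 bases before the start, and letters of that motif on either strand occurred in 12.4% of the 32851 RefSeq promoter windows of this length. In the Cldn15 window they are a GC box (GGGCGG), 108 bases before the start, found in 32.7% of windows. The other letters searched, on both strands, were the HNF1 site GTTAAT, an HNF4 core CAAAGTCCA, a CDX core TTTATNG, the GATA site AGATAA, the GRHL site AACCNGTT and a Snail-type E-box CACCTG. None of these had a match in these 2 windows, and they occurred in 0.384% (HNF4 core) to 17.2% (E-box) of all windows. RefSeq windows were matched for 8 of the 10 genes.

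The libraries held 14882204 to 42563229 counts each. A pair of them stood apart, and where leaving them out changes a call or moves a value of the 10 genes much, the value without them is given too. The 2-week control library 5 had the fewest counts, 29.4% of them mitochondrial where the other 4 of its group had 3.99% to 4.87%. The 7-week periodontitis library 5 had higher crypt and Paneth cell transcripts than the rest of its group. The labelled tissue was checked by its epithelial markers: all 9 genes of the epithelial list (Epcam, Cdh1, Vil1, Krt8 and others) were detected in every library, with a summed level of 10103 to 16903 CPM in periodontitis pups and 12989 to 15670 CPM in control pups at 7 weeks, and of 5863 to 8593 CPM in periodontitis pups and 6202 to 9347 CPM in control pups at 2 weeks.

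Age was the first comparison: 7 against 2 weeks, the time that spans weaning. In periodontitis pups all 10 genes changed: 7 rose (Cldn3, Cldn4, Cldn7, Cldn15, Cldn23, Ocln and Cldn12, the last with the opposite sign when libraries were scaled to epithelial markers) and 3 fell (Cldn1, Cldn2 and Cldn8). In control pups 9 of the 10 changed, 6 upwards and 3 downwards, and the directions were those of the periodontitis pups. Cldn12 missed the threshold with a log2 change of 0.29 and an SE of 0.14 (edgeR quasi-likelihood test, adjusted p = 0.0797). With libraries scaled to epithelial markers, Ocln was called in neither kind of pup, and Cldn7 was not called in periodontitis pups. A gene was called at an adjusted p under 0.05 in edgeR's quasi-likelihood test with Benjamini-Hochberg adjustment over all 17464 genes tested. By that rule 66.1% of all genes were called in periodontitis pups (30.4% higher, 35.7% lower) and 61.5% in control pups (27.1% higher, 34.4% lower). The median log2 fold change of the 10 genes was 1.01 in periodontitis pups and 1.02 in control pups, beside -0.11 and -0.13 over all genes. The libraries of the 2 ages did not overlap for 8 of the 10 genes in periodontitis pups and 9 of the 10 in control pups, against 53.2% and 45.7% of all genes. Of these 8, 5 lay above and 3 below (all genes 24.9% and 28.3%), and of the 9 in control pups 6 lay above and 3 below (all genes 22.5% and 23.2%). The exceptions were Cldn4 and Cldn23 in periodontitis pups and Cldn12 in control pups. All 10 genes passed the low-count filter, whose cutoff of 0.291 CPM applies before TMM scaling. Cldn1 passed through the 2-week libraries, where it is high: 1 of the 10 libraries of 7 weeks was above that cutoff. Cldn8 was above it in 2 of 5 periodontitis libraries and 5 of 5 control libraries of 7 weeks. In bulk tissue, fewer cells of a type and less RNA per cell cannot be told apart.

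**Figure D2:**
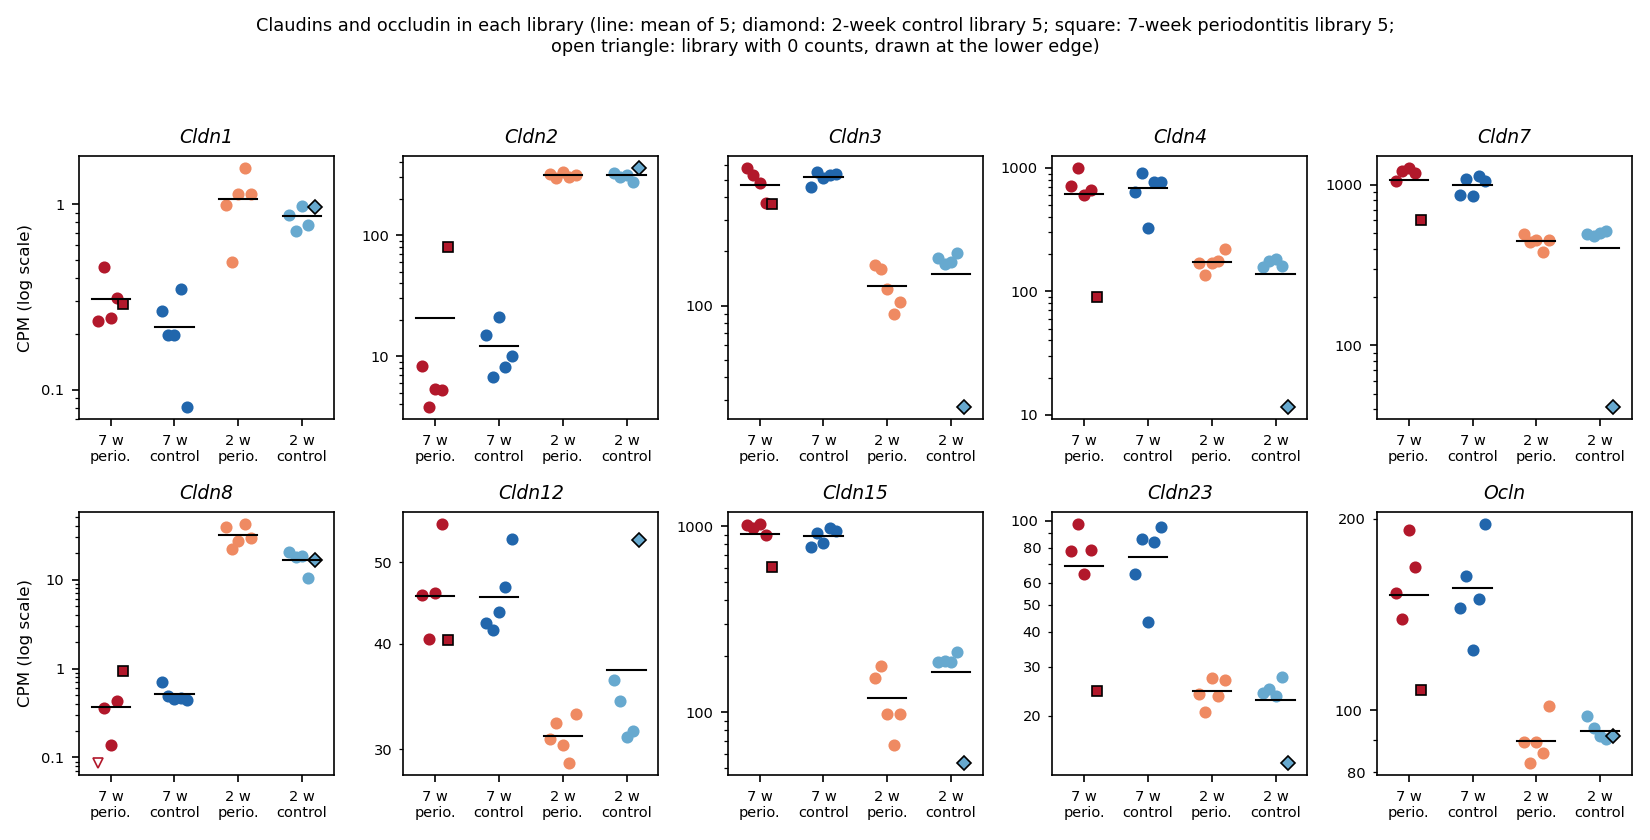
Each panel gives 1 gene, with CPM on a log axis for the 5 libraries of each group and a line at the group mean; the open triangle is a library with 0 counts. Cldn8, Cldn2 and Cldn1 sit lower at 7 weeks, Cldn15 sits higher, and 2-week control library 5 (diamond) and 7-week periodontitis library 5 (square) lie away from their groups for several genes.

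Cldn2, whose product forms a pore for cations and water, was the abundant member that fell. Its CPM at 7 weeks were 8.22, 3.79, 5.34, 5.23 and 80.3 in the 5 periodontitis libraries and 15.1, 6.72, 20.9, 8.21 and 9.94 in the 5 control libraries. At 2 weeks they were 322, 295, 333, 303 and 312 in periodontitis pups and 325, 301, 312, 275 and 359 in control pups. Every 7-week library lay below every 2-week library, and 7-week periodontitis library 5 was the nearest to them. The log2 fold change of 7 over 2 weeks was -3.92 ± 0.68 in periodontitis pups (15.1 times lower; SE, n = 5 per group, edgeR quasi-likelihood adjusted p = 5.3e-05) and -4.69 ± 0.70 in control pups (25.8 times lower; adjusted p = 1.76e-05). Without the 2 libraries that stood apart, the values for Cldn2 were -5.80 ± 0.31 in periodontitis pups and -4.66 ± 0.27 in control pups. Because Cldn2 is X-linked, the transcripts of Xist, which is made from an inactive X chromosome, were read beside it. Xist was at most 0.658 CPM in all 7-week libraries, and at 2 weeks it ran from 0.71 to 137 CPM in periodontitis pups and from 16.6 to 92.3 CPM in control pups. Cldn2 stayed within 275 to 359 CPM over those 2-week libraries. Ddx3y, a gene of the Y chromosome, was at 29.2 to 152 CPM in periodontitis pups and 34.4 to 83.8 CPM in control pups at 7 weeks. At 2 weeks Ddx3y ran from 0.0374 to 35.0 CPM in periodontitis pups and from 0 to 77.4 CPM in control pups. These transcripts thus differed between the ages. The part of the pups' sex in the change of any of the 10 genes with age was not tested.

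Cldn15, the other pore-forming claudin of the small intestine, rose. Its CPM at 7 weeks were 1018, 984, 1033, 902 and 605 in periodontitis pups and 772, 916, 815, 977 and 947 in control pups. At 2 weeks they were 153, 177, 97.9, 67.1 and 98.6 in periodontitis pups and 186, 188, 187, 211 and 53.4 in control pups. The ages did not overlap in either kind of pup. The log2 fold change was 2.93 ± 0.31 in periodontitis pups (7.65-fold; edgeR quasi-likelihood adjusted p = 2.49e-07) and 2.42 ± 0.31 in control pups (5.36-fold; adjusted p = 3.01e-06).

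The ratio of the 2 pore claudins per kb was higher in every 7-week library than in any 2-week library. The log2 ratio of Cldn15 to Cldn2 was 7.60, 8.67, 8.24, 8.08 and 3.56 in periodontitis pups at 7 weeks and 6.32, 7.74, 5.93, 7.54 and 7.22 in control pups at 7 weeks. At 2 weeks it was -0.42, -0.090, -1.12, -1.53 and -1.01 in periodontitis pups and -0.16, -0.034, -0.091, 0.27 and -2.10 in control pups. The lowest ratio at 7 weeks was thus above the highest at 2 weeks. At 2 weeks the lowest was in control library 5 and the next in periodontitis library 4.

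Cldn3, Cldn4 and Cldn7 are the main claudins of the enterocyte's lateral membrane that are not known as pores for sodium; claudin-7 binds Epcam, and claudin-3 and claudin-4 are receptors of a clostridial enterotoxin. All 3 rose with age in both kinds of pup. The CPM of Cldn3 at 7 weeks were 582, 531, 478, 370 and 365 in periodontitis pups and 457, 550, 509, 532 and 539 in control pups. At 2 weeks they were 168, 159, 124, 89.7 and 105 in periodontitis pups and 183, 169, 174, 197 and 27.2 in control pups. The ages did not overlap, and the log2 fold change of Cldn3 was 1.85 ± 0.34 in periodontitis pups and 1.78 ± 0.34 in control pups (edgeR quasi-likelihood adjusted p = 9.61e-05 and adjusted p = 0.00017). The CPM of Cldn7 at 7 weeks were 1051, 1219, 1275, 1189 and 603 in periodontitis pups and 870, 1082, 848, 1135 and 1052 in control pups. At 2 weeks they were 492, 442, 456, 380.1 and 454 in periodontitis pups and 494, 483, 499, 515 and 41.2 in control pups. The ages did not overlap here either. Cldn7 rose by 1.26 ± 0.39 in periodontitis pups and by 1.29 ± 0.39 in control pups (adjusted p = 0.00824 and adjusted p = 0.00769, the same test). Scaled to epithelial markers, Cldn7 was not called in periodontitis pups. Cldn4 rose by 1.82 ± 0.54 in periodontitis pups and by 2.31 ± 0.55 in control pups (adjusted p = 0.00603 and adjusted p = 0.00125).

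The Cldn4 libraries of periodontitis pups did not split by age. Its CPM at 7 weeks were 716, 1002, 599, 664 and 89.8 in periodontitis pups, and at 2 weeks 171, 135, 169, 175 and 221. Library 5 at 7 weeks thus lay below all 5 libraries of 2 weeks. In control pups the CPM of Cldn4 were 638, 913, 328, 765 and 774 at 7 weeks and 157, 176, 182, 160 and 11.5 at 2 weeks. Without the 2 libraries that stood apart, Cldn4 rose by 2.08 ± 0.22 in periodontitis pups and by 1.99 ± 0.23 in control pups.

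Cldn8, a sealing claudin best known from colon and kidney collecting duct, fell the most of the 10 genes. Its CPM at 7 weeks were 0, 0.358, 0.139, 0.436 and 0.926 in periodontitis pups and 0.696, 0.490, 0.459, 0.467 and 0.443 in control pups. The library with 0 counts allows up to 0.118 CPM (3 counts). At 2 weeks the CPM of Cldn8 were 38.5, 22.0, 27.3, 42.4 and 29.6 in periodontitis pups and 20.6, 18.01, 18.2, 10.3 and 16.5 in control pups. The log2 fold change was -6.36 ± 0.48 in periodontitis pups (82.3 times lower; edgeR quasi-likelihood adjusted p = 4.16e-09) and -5.02 ± 0.45 in control pups (32.4 times lower; adjusted p = 5.46e-08). Without periodontitis library 5 of 7 weeks the value of Cldn8 in periodontitis pups was -7.26 ± 0.45. Its 7-week values rest on 50 counts in all in periodontitis pups and 68 in control pups. Cldn1, which is essential to the barrier of the skin, fell by 1.80 on the log2 scale (SE 0.33) in periodontitis pups and by 1.95 (SE 0.35) in control pups (adjusted p = 0.000108 and adjusted p = 9.55e-05, the same test). It was at 0.236 to 0.46 CPM in periodontitis pups and 0.0805 to 0.35 CPM in control pups at 7 weeks, with 37 and 29 counts in all, and at 0.49 to 1.57 CPM in periodontitis pups and 0.713 to 0.978 CPM in control pups at 2 weeks.

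Cldn23, Ocln and Cldn12 rose as well. Cldn23, a claudin described in surface cells of the colon, averaged 68.5 ± 27.3 CPM in periodontitis pups and 74.4 ± 20.5 CPM in control pups at 7 weeks, and 24.5 ± 2.73 CPM in periodontitis pups and 22.7 ± 5.38 CPM in control pups at 2 weeks (SD, n = 5 each). It rose by 1.49 ± 0.28 on the log2 scale in periodontitis pups and by 1.70 ± 0.28 in control pups (edgeR quasi-likelihood adjusted p = 0.000124 and adjusted p = 4.53e-05). Ocln encodes occludin, a tight junction protein that is not a claudin and binds the scaffold ZO-1. It averaged 152 ± 31.6 CPM in periodontitis pups and 155 ± 26.7 CPM in control pups at 7 weeks, and 89.7 ± 7.11 CPM in periodontitis pups and 92.8 ± 3.17 CPM in control pups at 2 weeks. Ocln rose by 0.76 ± 0.14 and 0.75 ± 0.14 in the 2 kinds of pup (adjusted p = 0.000133 and adjusted p = 0.000204). Scaled to epithelial markers, Ocln was called in neither. Cldn12, which has been linked to paracellular calcium uptake, rose by 0.55 ± 0.14 in periodontitis pups (adjusted p = 0.00205). In control pups it was called without 2-week control library 5 (0.45 ± 0.10, adjusted p = 0.000522), where its level was 53.1 CPM against 31.0 to 36.2 CPM in the others of that group.

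Other cell types moved with age as well. All 7 weaned enterocyte markers rose (medians 3.23 in periodontitis pups and 1.91 in control pups), 7 of 10 suckling enterocyte markers fell in each (medians -3.13 and -2.001), and 5 and 6 of 7 crypt markers fell. In control pups 1 suckling marker was called higher. The epithelial list had a median log2 fold change of 0.90 in periodontitis pups and 0.92 in control pups. Of its 9 genes, 7 and 6 were called higher, and 1 and 2 lower. Krt18 and Krt19 had lower mean CPM at 7 weeks in both kinds of pup. All 7 endothelial markers fell (medians -2.18 and -2.13), as did 5 of 6 smooth muscle markers. All 8 exocrine pancreas markers fell. Their summed level was 5.58 to 11.6 CPM in periodontitis pups and 5.8 to 10.4 CPM in control pups at 7 weeks, against 147 to 1608 CPM in periodontitis pups and 229 to 1378 CPM in control pups at 2 weeks. The trypsinogen gene Prss2 and the carboxypeptidase gene Cpa1 were at 0 counts in all 5 periodontitis libraries of 7 weeks. Of the distal small intestine list 6 of 7 genes were lower and 1 higher at 7 weeks (medians -2.28 and -4.30). The ileal bile acid protein gene Fabp6 had 0 counts at 7 weeks in periodontitis pups and 21 in control pups. Of the 7 proximal genes, 5 were called higher and 2 lower in both kinds of pup (medians 1.48 and 1.64). The part of these shifts in the changes of the claudins was not tested. When libraries were instead scaled to equal epithelial markers, the median of all genes lay at -0.74 in both kinds of pup. Cldn15 then still rose by 2.33 ± 0.22 in periodontitis pups and by 1.90 ± 0.22 in control pups, and Cldn2 and Cldn8 still fell. Under that scaling Cldn12 had log2 fold changes of -0.075 and -0.40 (adjusted p = 0.792 and adjusted p = 0.146 in edgeR's quasi-likelihood test), Ocln 0.11 and 0.12 (adjusted p = 0.594 each), and Cldn7 0.62 in periodontitis pups (adjusted p = 0.107) and 0.81 in control pups (adjusted p = 0.039).

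Genes of the same junction were read from lists of 18 further claudin genes, 12 other membrane proteins, 19 scaffold proteins and 27 regulators. Calls with age in these lists stand beside 66.1% of all genes in periodontitis pups and 61.5% in control pups. Of the 7 further claudins tested, 1 rose with age in both kinds of pup and 6 fell. The one that rose was Cldnd1, a claudin-like gene, by 1.79 ± 0.17 in periodontitis pups and 0.96 ± 0.17 in control pups. Those that fell were Cldn5, the claudin of endothelium, Cldn18, known from stomach and lung, and Cldn10, Cldn14, Cldn19 and Cldn34c1. Cldn10, Cldn14, Cldn18 and Cldn19 were at no more than 0.174 CPM in any 7-week library. They passed the low-count filter through 2-week libraries, where they are high, so a call with age could only be a fall. Cldn34c1 rests on 45 counts in periodontitis pups and 57 in control pups at 7 weeks. Cldn5 was at 1.3 to 5.44 CPM in periodontitis pups and 1.99 to 3.91 CPM in control pups at 7 weeks, against 10.8 to 16.9 CPM in periodontitis pups and 1.61 to 11.4 CPM in control pups at 2 weeks. The 1.61 CPM is control library 5, and the other 4 were at 9.16 to 11.4 CPM. Of the 12 membrane proteins, 6 rose and 5 fell in periodontitis pups, and 6 rose and 4 fell in control pups. Those that rose in both were Cxadr, Crb3, Igsf5, Lsr, F11r, the junctional adhesion molecule of epithelium, at 1.17 ± 0.18 in periodontitis pups and 1.25 ± 0.18 in control pups, and Marveld3, a relative of occludin, at 1.29 ± 0.19 and 1.31 ± 0.19. Those that fell in both were Jam2, Jam3, Clmp and Ildr1, an angulin of tricellular contacts. In periodontitis pups Ildr2 fell too (-2.17 ± 0.69), and in control pups it was at -1.48 ± 0.68 (edgeR quasi-likelihood adjusted p = 0.0658). Marveld2, the tricellulin gene, did not pass in either (0.18 ± 0.11 and 0.10 ± 0.11, edgeR quasi-likelihood adjusted p = 0.182 and adjusted p = 0.463). Without both libraries that stood apart it was called in periodontitis pups (0.24 ± 0.078, adjusted p = 0.00891, the same test), beside 78.7% of all genes.

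Of the 18 scaffold genes tested, 8 rose and 6 fell in periodontitis pups, and 7 rose and 7 fell in control pups. Of all genes 66.1% and 61.5% were called with age, and the scaffold and regulator counts stand beside these shares. Tjp1, which encodes ZO-1, rose by 0.78 ± 0.17 in periodontitis pups (edgeR quasi-likelihood adjusted p = 0.000544), and in control pups its value was 0.30 ± 0.17 (adjusted p = 0.127). Magi1, Patj, Mpp5 and Pard6b rose in both; Patj rose by 0.91 ± 0.16 in periodontitis pups and 0.88 ± 0.16 in control pups. Cgnl1, Magi2, Mpdz, Amot, Amotl1 and Amotl2 fell in both. Magi3 and Pard3 were called higher in periodontitis pups, and Tjp3 and Cgn higher and Ybx3 lower in control pups. The difference between the 2 kinds of pup, tested directly with edgeR, gave 0 calls in the 4 lists, with 3 claudins, 0 membrane proteins, 4 scaffolds and 3 regulators at an unadjusted p under 0.05, beside 8.8% of all genes. Without both libraries that stood apart, the difference was called for Magi3 (0.64 ± 0.14, adjusted p = 0.0347), Amot (-0.73 ± 0.13, adjusted p = 0.0162) and Prss8 (-0.92 ± 0.19, adjusted p = 0.033), beside 0.945% of all genes. The same fit called Tjp1 (0.48 ± 0.095, adjusted p = 0.000175) and Pard3 higher with age in control pups, and no longer Magi1. In that fit 73.2% of all genes were called with age in control pups and 78.7% in periodontitis pups. Of the 26 regulators tested, 15 rose and 5 fell in periodontitis pups, and 13 rose and 4 fell in control pups. The membrane protease gene St14 (matriptase) rose by 1.58 ± 0.24 in periodontitis pups and 1.59 ± 0.24 in control pups, and the vitamin D receptor gene Vdr by 2.31 ± 0.36 and 1.32 ± 0.35. Epcam, Spint1, Spint2, Rock2, Rhoa, Arhgef2, Prkcz, Cdc42, Lnx1, Hnf4a and Hnf4g also rose in both, and Rock1 and Klf5 in periodontitis pups. Without both libraries that stood apart, Rock1 and Klf5 were called higher in control pups too, and Cdx1 lower in both, beside the larger shares of all genes called in that fit. Wnk4, Grhl2 and Snai2 fell in both, and Prss8 in periodontitis pups. Snai1, a repressor of junction genes, fell by 3.00 (SE 0.32) in periodontitis pups and by 2.22 (SE 0.31) in control pups.

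**Figure D3:**
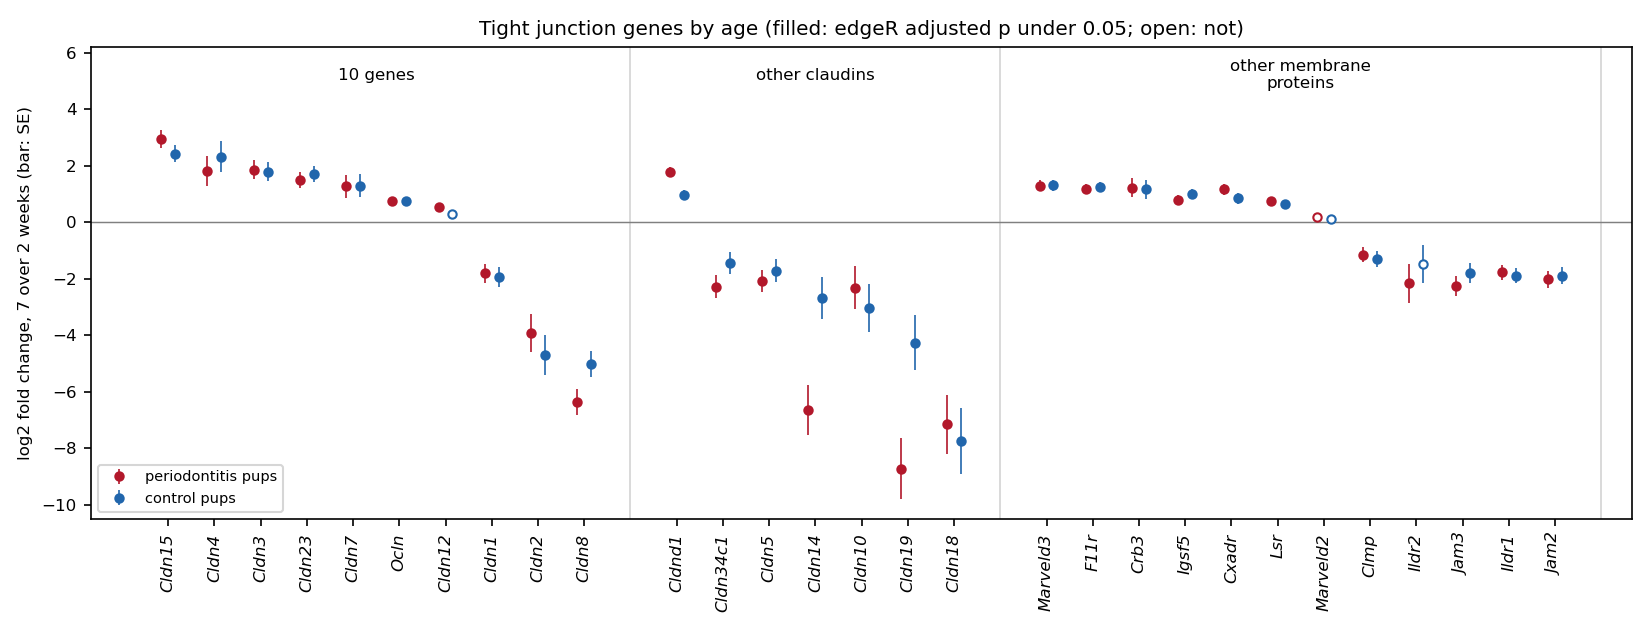
Points give the log2 fold change of 7 over 2 weeks with its SE for the 10 genes and for the other claudins and membrane proteins tested, in periodontitis pups (red) and control pups (blue); filled points passed an edgeR adjusted p under 0.05. Cldn15 is the highest of the 10 genes and Cldn8 the lowest in both kinds of pup.

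The second comparison was between pups of dams with periodontitis and pups of control dams. At 7 weeks 0 of the 10 genes were called by edgeR's quasi-likelihood test, and 0 had an unadjusted p under 0.05. DESeq2 also called 0, but it gave no adjusted p for Cldn2 in this or any other comparison. Of all genes 0.0115% were called and 3.33% had an unadjusted p under 0.05. The libraries of the 2 kinds of pup overlapped for all 10 genes, and 0.527% of all genes did not overlap. The log2 fold changes ran from -0.41 ± 0.50 for Cldn8 to 0.76 ± 0.61 for Cldn2. The 95% intervals for the abundant members were -0.84 to 0.53 for Cldn3, -1.25 to 0.94 for Cldn4, -0.71 to 0.90 for Cldn7, -0.57 to 0.64 for Cldn15 and -0.33 to 0.26 for Ocln. For the rest they were -0.32 to 1.25 for Cldn1, -0.29 to 0.30 for Cldn12 and -0.69 to 0.45 for Cldn23. A p that misses the threshold does not show that the levels were alike.

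The value of Cldn2 at 7 weeks turned on 1 library. Periodontitis library 5 had 80.3 CPM, and the other 4 had 3.79 to 8.22 CPM, against 6.72 to 20.9 CPM in control pups. Without it the log2 fold change of Cldn2 was -1.10 ± 0.27 (edgeR quasi-likelihood adjusted p = 0.172), and without both libraries that stood apart -1.10 ± 0.27 (adjusted p = 0.0821). Cldn8 differed by -1.29 ± 0.50 without periodontitis library 5 (adjusted p = 0.411). In that library the mean log2 CPM of crypt markers was 5.21 against 3.77 to 4.44 in the rest of its group. Paneth cell markers were at 6.67 against 3.66 to 4.55, and endothelial markers at 3.52 against 1.89 to 2.39. Proximal markers were at 9.61 against 8.77 to 8.88, and distal markers at 1.47 against 2.47 to 3.03. In the 5 control libraries proximal markers were at 9.46 to 9.70. The other 4 periodontitis libraries lay below all of them on this mean log2 scale, but not by summed level. Summed, the proximal list was at 13459, 13360, 17337 and 14262 CPM in those 4 libraries and 11732 to 17852 CPM in control pups. Its median log2 fold change between dams was -0.062, with 1 of 7 genes at an unadjusted p under 0.05 in edgeR. Distal markers were at a mean log2 CPM of 2.005 to 3.03 in control pups. Control libraries 1 and 3 had the highest Cldn2 of their group (15.1 and 20.9 CPM), with crypt markers at 4.46 and 4.64 against 3.82 to 4.13 in the other 3. The part of these markers in the Cldn2 values was not tested.

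At 2 weeks 0 of the 10 genes were called by edgeR's quasi-likelihood test and 0 by DESeq2, which gave no adjusted p for Cldn2. In edgeR 1 gene, Cldn8, had an unadjusted p under 0.05. Of all genes 0.0286% were called and 14.4% had an unadjusted p under 0.05. All 5 periodontitis libraries of Cldn8 (22.0 to 42.4 CPM) lay above all 5 control libraries (10.3 to 20.6 CPM). Its log2 fold change was 0.93 ± 0.35, with an adjusted p = 0.23 in edgeR's quasi-likelihood test. Groups that do not overlap were seen for 7.25% of all genes in this comparison, and 3.71% were higher in periodontitis pups, so 1 of 10 genes is near that share. Without both libraries that stood apart, the value of Cldn8 was 0.93 ± 0.25 (adjusted p = 0.0595). Suckling enterocyte markers, at a mean log2 CPM of 6.97 to 7.89 in periodontitis pups and 5.57 to 6.91 in control pups, and endothelial markers, at 4.75 to 4.93 and 3.91 to 4.61, also did not overlap between these groups. The median of Xist was 7.58 CPM in periodontitis pups and 70.5 CPM in control pups, with ranges that overlapped. The part of these markers in the Cldn8 value, and of the pups' sex in any 2-week value, was not tested.

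Cldn15 and Cldn3 were lower in part of the 2-week periodontitis libraries. For Cldn15, libraries 3, 4 and 5 of periodontitis pups (97.9, 67.1 and 98.6 CPM) lay below libraries 1 and 2 (153 and 177 CPM), and 4 of the control libraries were at 186 to 211 CPM. Control library 5 was at 53.4 CPM, so the groups overlapped. The log2 fold change of Cldn15 was -0.48 ± 0.29 (edgeR quasi-likelihood adjusted p = 0.471), and without control library 5 it was -0.70 ± 0.22 (adjusted p = 0.139). That of Cldn3 was -0.22 ± 0.33 (adjusted p = 0.783), and without that library -0.49 ± 0.17 (adjusted p = 0.203). Without control library 5, all 5 periodontitis libraries lay below all 4 control libraries for both genes; 10.5% of all genes then did not overlap, with 4.94% higher and 5.6% lower in periodontitis pups. The weaned enterocyte markers, such as sucrase-isomaltase (Sis), moved in the same libraries. On the log2 CPM scale they averaged 6.57, 5.78 and 6.24 in libraries 3, 4 and 5 of periodontitis pups, 8.02 and 8.26 in libraries 1 and 2, and 8.27 to 8.66 in the control libraries. Distal small intestine markers were at 5.48, 5.18 and 5.19 in periodontitis libraries 3, 4 and 5, and at 7.19 and 7.06 in libraries 1 and 2. Of the 7 distal genes, 3 had a positive log2 fold change between dams at 2 weeks. Proximal markers were lower in libraries 3, 4 and 5 too, at 7.98, 7.23 and 7.87 against 8.77 and 8.78. Paneth cell and goblet cell markers were also lower there. Suckling enterocyte markers were higher there, at 7.75, 7.89 and 7.78 against 7.38 and 6.97. The part of these shifts in the Cldn15 and Cldn3 values was not tested.

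For the other members the libraries of the 2-week groups overlapped. Cldn2 was at 295 to 333 CPM in periodontitis pups and 275 to 359 CPM in control pups, and its log2 fold change was -0.00645 ± 0.60 (95% interval -1.26 to 1.25). That interval uses a spread estimated over all 20 libraries, not the 2-week libraries alone. The SD of Cldn2 was 162% of the mean in periodontitis pups at 7 weeks. At 2 weeks it was 4.88% in periodontitis pups and 9.79% in control pups. Ocln was at 82.7 to 101 CPM in periodontitis pups and 90.04 to 97.9 CPM in control pups (log2 fold change -0.049 ± 0.14, interval -0.35 to 0.25). Cldn12 differed by -0.26 ± 0.14, and by -0.097 ± 0.098 without control library 5, which was its highest library. The values were 0.32 ± 0.30 for Cldn1, 0.34 ± 0.52 for Cldn4, 0.13 ± 0.39 for Cldn7 and 0.10 ± 0.27 for Cldn23. Without control library 5 they were 0.045 for Cldn4, -0.16 for Cldn7 and -0.034 for Cldn23.

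**Figure D4:**
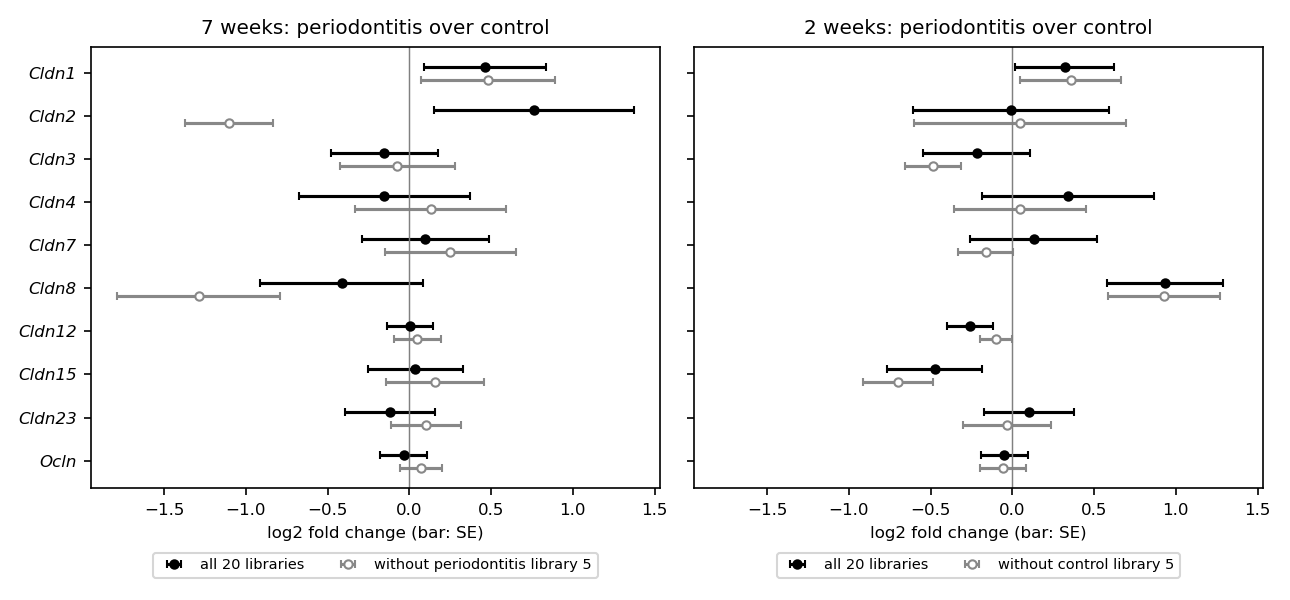
Points give the log2 fold change of periodontitis over control pups with its SE for the 10 genes at 7 weeks (left) and 2 weeks (right), from all 20 libraries (black) and without library 5 of the periodontitis group at 7 weeks or of the control group at 2 weeks (grey). At 7 weeks Cldn2 lies at 0.76 with all libraries and at -1.10 without library 5.

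The difference between the dam effects at 7 and 2 weeks was tested directly. By edgeR or by DESeq2, which again gave no adjusted p for Cldn2, 0 of the 10 genes were called. Of all genes 0.0229% were called by edgeR, and 8.8% had an unadjusted p under 0.05. Cldn8 was the member with an unadjusted p under 0.05, at -1.35 ± 0.61 (effect at 7 weeks minus effect at 2 weeks, adjusted p = 0.561 in edgeR). It rests on the few counts of Cldn8 at 7 weeks. Without both libraries that stood apart it was -2.24 ± 0.59 (adjusted p = 0.0661). Cldn15 had a value of 0.51 ± 0.41 (adjusted p = 0.72), Cldn2 0.77 ± 0.86, Cldn4 -0.50 ± 0.74 and Cldn12 0.26 ± 0.20. Cldn1 (0.14), Cldn3 (0.065), Cldn7 (-0.031), Cldn23 (-0.22) and Ocln (0.015) were nearer to 0. Without both libraries that stood apart, Cldn2 was at -1.15 ± 0.36 and Cldn15 at 0.86 ± 0.27 (adjusted p = 0.106 each).

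With all 20 libraries, the 4 junction lists gave 0 calls between the dams at either age by edgeR's quasi-likelihood test. At 2 weeks the smallest p was that of Cldn19, a claudin known from kidney and from Schwann cells. Its CPM were 1.55, 1.45, 7.39, 8.53 and 5.57 in periodontitis pups and 1.05, 0.782, 1.11, 0.11 and 0 in control pups. The groups did not overlap, and the log2 fold change was 2.90 ± 0.63 (edgeR quasi-likelihood adjusted p = 0.0545). Cldnd1 averaged 36.6 ± 7.31 CPM in periodontitis pups and 60.8 ± 18.8 CPM in control pups (SD, n = 5 each), a log2 fold change of -0.73 ± 0.17 (adjusted p = 0.0591). Cldn14 and Cldn5 were next among the claudins. Cldn19 and Cldn14 passed the low-count filter through the 2-week periodontitis libraries, where they are high. In the 2-week control libraries the counts of Cldn19 were 54, 34, 49, 5 and 0, and those of Cldn14 were 8, 4, 9, 3 and 0. This limit also holds where libraries were left out. Among the scaffolds the smallest p was that of Magi3 (-1.03 ± 0.29, adjusted p = 0.104), before Cgnl1, Tjp1 and Mpp5, and among the regulators that of the nuclear receptor gene Hnf4g (-1.19 ± 0.29, adjusted p = 0.0714), before Prss8, Vdr and Rock2. Among the membrane proteins it was that of the adenovirus receptor gene Cxadr (-0.38 ± 0.20, adjusted p = 0.398), before Jam3, Marveld3 and Ildr2. At an unadjusted p under 0.05 stood 3 of the 7 claudins, 0 of the membrane proteins, 4 of the scaffolds and 6 of the regulators, beside 14.4% of all genes. Without both libraries that stood apart, 4 genes were called at 2 weeks, beside 2.03% of all genes: Cldn19 (2.68 ± 0.58, adjusted p = 0.0329), Cldnd1 (-0.52 ± 0.11, adjusted p = 0.0309), Magi3 (-0.46 ± 0.097, adjusted p = 0.029) and the protease gene Prss8 (0.57 ± 0.14, adjusted p = 0.0413). At 7 weeks the smallest p of the 4 lists was that of the scaffold gene Amot (-0.32 ± 0.14, adjusted p = 1), the 1 gene of these lists at an unadjusted p under 0.05, beside 3.33% of all genes. Without both libraries it was at -0.46 ± 0.095 (adjusted p = 0.0516).

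The 10 genes did not move together in 2-week control library 5. Relative to the mean of the other 4 control libraries on the log2 CPM scale, Cldn4 was lower by 3.87, Cldn7 by 3.59, Cldn3 by 2.73, Cldn15 by 1.85 and Cldn23 by 0.88. Cldn8 differed by 0.021, Ocln by -0.033, Cldn1 by 0.21, Cldn2 by 0.25 and Cldn12 by 0.68. The 5 genes that were low are the 5 with the highest GC content of the longest transcript among the 10: 62.7% in Cldn3, 57.0% in Cldn7, 56.8% in Cldn4, 54.8% in Cldn23 and 54.1% in Cldn15. The other 5 lay between 39.0% in Cldn1 and 48.8% in Cldn2. Over all 17441 tested genes with a GC value, split into 5 equal bins of GC content, the median difference of this library was 0.88, 0.35, -0.21, -0.89 and -1.72, low to high. In 7-week periodontitis library 5 the medians over the same bins ran from -0.26 to 0.26, while Cldn2 was higher by 3.87 and Cldn4 lower by 3.02. The part of GC content in the values of these genes was not tested.

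**Figure D5:**
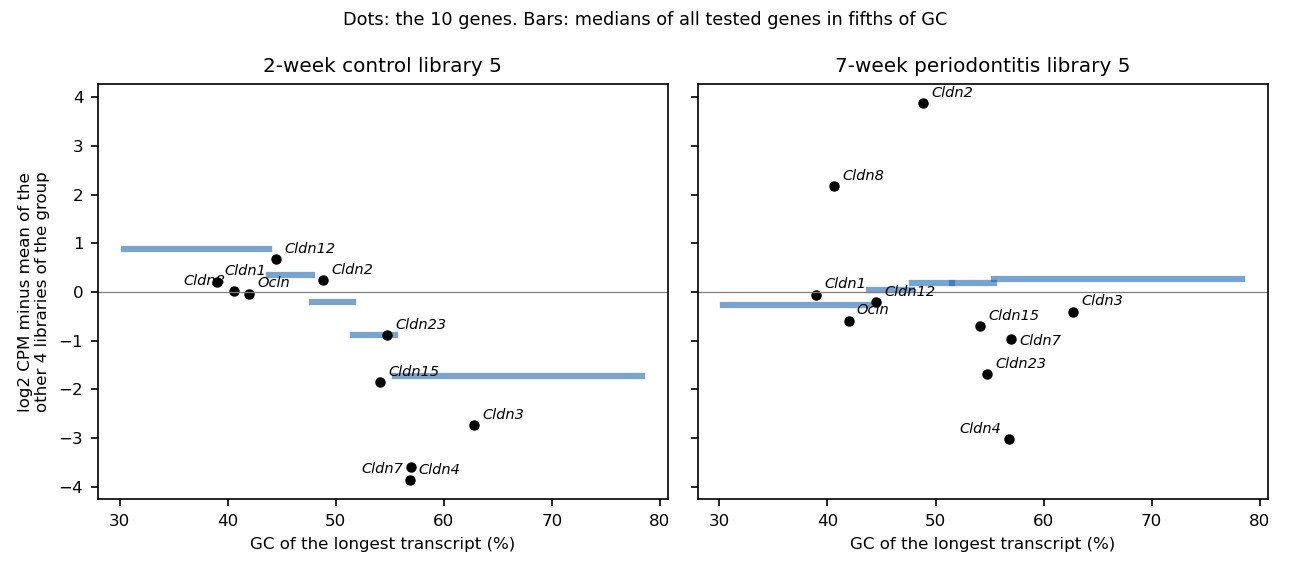
Dots give, for each of the 10 genes, the log2 CPM in 1 library minus the mean of the other 4 libraries of its group, against the GC content (%) of the longest transcript; bars are the medians of all tested genes in 5 equal bins of GC content. In 2-week control library 5 (left) Cldn4, Cldn7 and Cldn3 lie lowest at high GC content, and in 7-week periodontitis library 5 (right) Cldn2 lies at 3.87 and Cldn4 at -3.02.

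Likeness between genes was described as Pearson's r of the deviations from the group means of log2 CPM, over 20 libraries and, without the 2 that stood apart, over 18; the values share library depth and composition and carry no test. Among the members, Cldn3 and Cldn7 had r = 0.94 over 20 libraries and 0.74 over 18, and Cldn3 and Cldn15 had r = 0.93 over 20 libraries and 0.86 over 18. Cldn4 and Cldn23 had 0.88 and 0.84. Cldn2 ran against Cldn23, at -0.87 and -0.77, and against Cldn4, at -0.67 and -0.63. Cldn3 and Cldn4 had 0.77 over 20 libraries and 0.39 over 18. The genes most like Cldn2 over 20 libraries were Pitrm1 (0.97), Hnrnpa1 and Smyd2 (0.96 each), and of these Pitrm1 was still among the first 3 over 18 (0.93). Those most like Cldn15 were Smim24 and Pepd (0.98 each), and those most like Cldn3 were Gpt, Tlnrd1 and Slc25a11 (0.99 each). For Cldn4 they were Shb, Dusp8 and Rhod (0.98 each), for Cldn7 Fis1, D17H6S53E and Ubac2 (0.99 each), and for Cldn23 Trim15, Tollip (0.94 each) and Rhpn2 (0.93). For Ocln they were Ccl24, Nipal1 and Selenoi (0.87 to 0.88), and the same 3 led over 18 libraries. For Cldn8 they were Vangl1, Sox7 and Hao2 (0.85 to 0.86), for Cldn12 Enox2, Erap1 and Znrf2 (0.90 to 0.93), and for Cldn1 Pcdhb11, Zfp964 and Zfp9 (0.72 to 0.78). Over 18 libraries the first 3 still held Gpt and Tlnrd1 for Cldn3, Dusp8 and Rhod for Cldn4, Fis1 and Ubac2 for Cldn7, Smim24 for Cldn15, Tollip for Cldn23, Sox7 for Cldn8, Enox2 for Cldn12, and Pcdhb11 and Zfp964 for Cldn1. Apart from these, Pitrm1 for Cldn2 and the 3 for Ocln, the genes named were no longer among them.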

How the data were processed

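PolyA RNA of mouse small intestine was sequenced in bulk in 20 libraries. The authors deposited 1 table of gene-level expected counts from RSEM, all of them whole. The tools named, per the submitters' processing notes, were cutadapt 4.8, FastQC 0.11.8, STAR 2.7.8a and RSEM 1.3.3, and the builds listed are GRCh38 and GRCm38. Annotation release and strandedness are not given in the sources used here, and 4 lines that name no gene hold 0 counts. Rounding changed 0 values.

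Genes were filtered with filterByExpr (17464 kept), scaled by TMM and fitted in R 4.3.3 with edgeR 4.0.16 (robust quasi-likelihood, 1 mean per group over 20 libraries, 16 residual degrees of freedom). P-values were adjusted across the 17464 genes (Benjamini-Hochberg; threshold 0.05). SEs were derived from the F statistic, as |log2 fold change|/√F. CPM per kb use the union of GENCODE M21 exons; a prior count of 2 was used for log2 CPM. The procedure was run on simulated counts, drawn around 1 mean per gene with changes planted in some genes. Libraries that stand apart and a shift with GC content were not simulated. Alternatives were DESeq2 1.42.0, its size factors, no filter, a filter of CPM above 1 in 5 libraries, the compared groups alone, the replicate number as a block, scaling to epithelial markers, and removal of libraries. The 10 members, the lists and the 2 libraries that stand apart were chosen with earlier results of these data known. All 10 members are named in every comparison; of the lists, called genes or those with the smallest p are named. A scaffold gene and a gene alike to Cldn15 are not reported here by name. Where 3 counts limit a level of 0, this covers counting error only. Libraries of a group were taken as independent. The overlap of groups without 2-week control library 5, the likeness over 18 libraries, and the junction lists without both libraries were added after seeing the data.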

Additional observations from a re-analysis of the deposited data

Results flagged for a closer look

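Among the 40 sets of 5 libraries (10 genes in 4 groups), 7 held a library whose gap to the others took up an unusually large part of the group's range. Chance gives this in about 1 of 20 sets. In periodontitis pups at 7 weeks, library 5 had Cldn2 at 80.3 CPM against 3.79 to 8.22 CPM in the others. In control pups at 2 weeks, library 5 was low for Cldn3 (27.2 CPM against 169 to 197 CPM), Cldn4 (11.5 CPM against 157 to 182 CPM), Cldn7 (41.2 CPM against 483 to 515 CPM) and Cldn15 (53.4 CPM against 186 to 211 CPM). The same library was high for Cldn12 (53.1 CPM against 31.0 to 36.2 CPM). In control pups at 7 weeks, library 1 had Cldn8 at 0.696 CPM against 0.443 to 0.49 CPM in the others, which are levels of few counts. The 5 sets from 2-week control library 5 are not independent of each other, since they share that library.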

How the results depend on the processing

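The counts of the 10 genes called (10 and 9 with age, 0 between dams, 0 for the difference) stayed within 1.5 times under all alternatives, at 7 to 10 in periodontitis pups and 8 to 10 in control pups for age, and 0 in the others. Scaled to epithelial markers, Cldn7 (0.62) and Ocln (0.11) were not called with age in periodontitis pups, nor Ocln in control pups (0.12), and Cldn12 turned to -0.075 and -0.40. In that scaling Ocln also turned between dams, to 0.041 at 7 weeks, 0.042 at 2 weeks and -0.0014 for the difference, Cldn2 to 0.054 at 2 weeks and Cldn3 to -0.075 for the difference. With no filter, Cldn12 was at -0.012 at 7 weeks, Cldn2 at 0.035 at 2 weeks and Ocln at -0.036 for the difference.

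Cldn12 was called in control pups without 2-week control library 5 (0.45) and without both libraries that stood apart (0.43). Without both, the 7-week values turned for Cldn2 (-1.10), Cldn4 (0.13), Cldn23 (0.10) and Ocln (0.074), the 2-week values for Cldn2 (0.044), Cldn7 (-0.16) and Cldn23 (-0.036), and the differences for Cldn2 (-1.15), Cldn4 (0.085), Cldn7 (0.42) and Cldn23 (0.14). Causes were not tested.

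Replicate numbers are not known to pair libraries: the correlation of same-numbered libraries' deviations was -0.397 to 0.288. With the replicate number as a block no member's call changed, and Cldn8 at 2 weeks was 0.92. Signs turned for Cldn15 at 7 weeks (-0.018), Cldn2 at 2 weeks (0.023), and the differences of Cldn2 (-0.0091) and Cldn3 (-0.055).

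Leaving out each library in turn, signs turned in these ranges. At 7 weeks they were -0.077 to 0.066 for Cldn12, -0.014 to 0.16 for Cldn15, -1.10 to 1.05 for Cldn2, -0.28 to 0.10 for Cldn23, -0.40 to 0.13 for Cldn4 and -0.13 to 0.074 for Ocln. At 2 weeks they were -0.051 to 0.045 for Cldn2, -0.034 to 0.18 for Cldn23 and -0.16 to 0.23 for Cldn7. For the difference they were -0.059 to 0.37 for Cldn1, -1.10 to 1.05 for Cldn2, -0.052 to 0.33 for Cldn3, -0.13 to 0.26 for Cldn7 and -0.083 to 0.12 for Ocln.

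Over all genes the calls varied more than those of the members: 2 at 7 weeks (0 to 32 under other settings), 5 at 2 weeks (0 to 599, the highest with DESeq2), and 4 for the difference (0 to 165). DESeq2 gave no adjusted p for Cldn2. Depth limits Cldn1 and Cldn8 at 7 weeks, where they rest on few counts.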
